A study of Homo sapiens with 6 samples.

Results

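Tight junctions are the belts that seal neighbouring epithelial cells together. Claudins, proteins that cross the membrane repeatedly, form the sealing strands. Occludin and the junctional adhesion molecule F11R lie in the same membrane, and the PDZ scaffolds TJP1 (ZO-1) and TJP3 (ZO-3) tie the strands to actin. TMEM47 is a membrane protein of the wider claudin and PMP22 family that localises to cell contacts. Melanoma cells are not epithelial and build few such belts, but claudin-1 is known in melanoma for its link to motility. The genes described are CLDN1, CLDN7, CLDN11, CLDN12, TJP1, TJP3, OCLN, F11R and TMEM47. They were named with the differences between knockdown and control on these same 6 arrays known, and so count as chosen on those values. Their differences are therefore given as a description with standard errors and without a test. Every probe set that the platform annotation pairs with exactly 1 of these symbols was used. That gave 17 probe sets for 8 of the 9 genes, out of 18132 genes measured. F11R had no probe set under this rule and was not analysed here, and 2 further probe sets that name a member together with other genes were left out.

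The arrays hold total RNA of A375, an established human melanoma cell line. The 3 control arrays are A375 cells, and the 3 knockdown arrays are the same line with MAP4K5, a kinase upstream of JNK signalling, stably silenced by a hairpin. Other effects of making such a line cannot be told apart from the loss of MAP4K5. Both groups were grown in the same medium without treatment. The labels do not say whether controls carried an empty vector, or how many hairpins or clones the knockdown cells represent. The labels call the arrays biological replicates without naming separate cultures, so the errors measure the spread between these arrays. In bulk RNA, fewer cells with a transcript and less transcript per cell cannot be told apart. Levels are linear intensities after robust multi-array averaging (RMA), with array medians of 4.85 to 4.94. MAP4K5 was lower on all knockdown arrays at each of its 3 probe sets, and the brightest fell from 77.4 ± 0.95 to 19.6 ± 0.74 (SD), a log2 difference of -1.98, or -1.39 with 16 added before log2. The two-sided exact permutation test gave p = 0.1, which is the lower limit for groups of this size (n = 3 each). Control replicate 2 stood apart from the other controls. The SD of its log2 difference was 0.31 and 0.30 from controls 1 and 3 but 0.26 to 0.27 from the knockdown arrays, while controls 1 and 3 differed from each other with an SD of 0.23. The value of control replicate 2 is given below for TMEM47, CLDN1 and several other genes.

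TMEM47 was the member with the largest difference. At its brighter probe set, 11721758_at, the intensity was 34.1, 37.7 and 40.1 on control arrays 1 to 3 and 6.03, 5.85 and 6.90 on knockdown arrays 1 to 3. The groups were far apart, and control replicate 2 lay between the other controls. The means were 37.3 ± 3.01 and 6.26 ± 0.56 (SD, n = 3 each), a 5.96-fold lower level that left 16.8% of the control value. The log2 difference, knockdown minus control, was -2.57 ± 0.10 (SE of the limma fit), the 7th largest decrease among the 18132 genes. It ranged from -2.65 to -2.52 when each array was left out in turn, and was -2.56 without control replicate 2. The size depended on how values were summarised, at -1.26 with 16 added before log2 and -1.79 with the mean of both probe sets. The dimmer probe set, 11721757_at, gave 5.72, 5.93 and 6.48 in control cells and 2.99, 3.21 and 2.80 in knockdown cells. The groups again did not overlap, and the log2 difference was -1.01 ± 0.09 (SE), or -0.21 with 16 added. Its knockdown values lay below the array medians and its control values above them.

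CLDN1, the claudin that seals the epidermal barrier, was also lower in knockdown cells, but its controls were not alike. Its brightest probe set, 11728232_a_at, measured 42.2 and 48.9 on control arrays 1 and 3, 16.8 on control array 2, and 8.26, 12.0 and 13.2 on knockdown arrays 1 to 3. All knockdown arrays lay below all control arrays, with control replicate 2 much nearer to the knockdown arrays. The control mean was 35.9 ± 16.9 and the knockdown mean 11.2 ± 2.58 (SD, n = 3 each). The log2 difference was -1.57 ± 0.37 (SE), the 41st largest decrease among all genes at the gene level. Without control replicate 2 it was -2.05, and over the 6 fits that each left out 1 array it ran from -2.05 to -1.28. It was -0.88 with 16 added before log2 and -0.75 with the mean of the 4 probe sets. Controls 1 and 3 on average exceeded the knockdown mean by 2.05 on the log2 scale, against 0.61 for control replicate 2. The knockdown arrays also varied more here than for TMEM47, with an SD of 0.36 on the log2 scale against 0.13.

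The other CLDN1 probe sets did not all follow the brightest. Probe set 11728234_a_at measured 13.8 and 14.0 on control arrays 1 and 3, 5.20 on control array 2, and 3.93, 4.12 and 5.04 in knockdown cells. The order was that of the brightest probe set, with a log2 difference of -1.21 ± 0.34 (SE), of -1.68 without control replicate 2 and of -0.39 with 16 added before log2. Probe set 11746433_a_at, at 2.69 to 3.27 in control and 2.29 to 2.69 in knockdown cells, overlapped between the groups (-0.27 ± 0.11). Probe set 11728233_a_at gave 0.04 ± 0.16 and was dim, at 3.27 to 5.21 in control and 3.94 to 4.08 in knockdown cells. The CLDN1 difference thus rested on 2 of its 4 probe sets, those with the higher control levels.

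**Figure D1:**
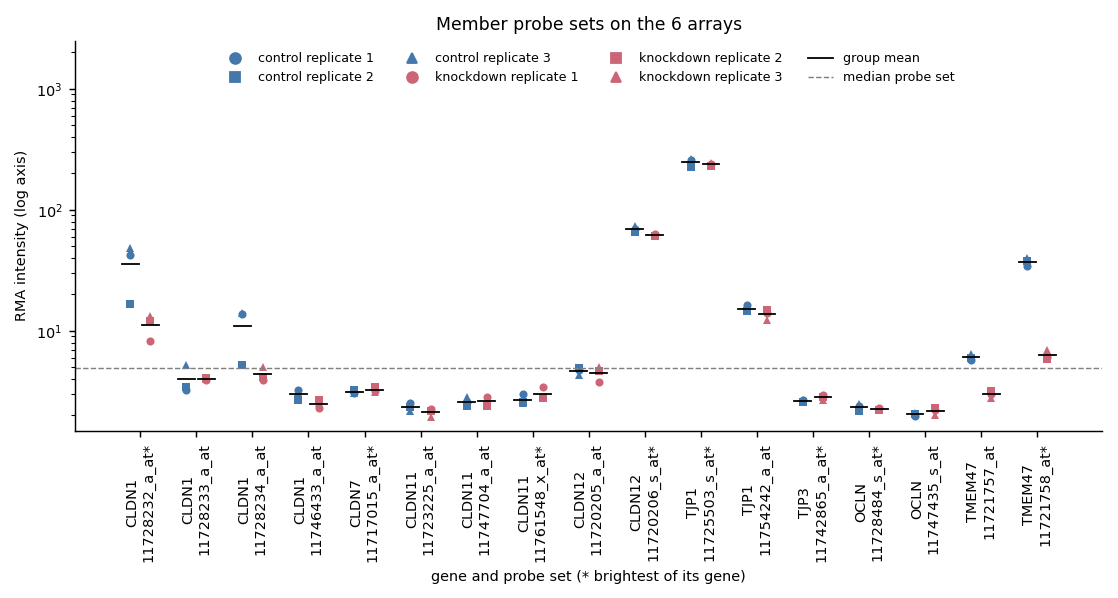
RMA intensity (log axis) of the 17 member probe sets on the 6 arrays, with control arrays in blue and knockdown arrays in red, replicates by marker shape, group means as black bars, and the median probe set (4.93) as a dashed line. TMEM47 and the brightest CLDN1 probe set separate the groups, control replicate 2 (blue square) is the lowest CLDN1 control at 16.8, and 8 probe sets lie below the array median on every array.

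Promoter sequence was set beside these values for the pair of members with log2 differences beyond 1 and for CLDN7. The window of 1 CLDN7 start site held the most matches among the members to the motif searched. The motif was CAGGTG on either strand (CACCTG on the strand read), the E-box core that the repressors of the SNAI and ZEB families bind. The sequences are the 250 bases before a RefSeq start site in GRCh38.p14, 5′ to 3′ on the gene's own strand, with motif matches in capitals.
TMEM47, chrX:34657286-34657535, minus strand: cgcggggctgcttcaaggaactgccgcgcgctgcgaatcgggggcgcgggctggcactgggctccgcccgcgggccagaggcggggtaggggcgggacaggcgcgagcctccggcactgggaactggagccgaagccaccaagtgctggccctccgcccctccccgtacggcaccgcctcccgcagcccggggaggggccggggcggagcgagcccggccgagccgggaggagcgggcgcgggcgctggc
CLDN1, chr3:190322447-190322696, minus strand: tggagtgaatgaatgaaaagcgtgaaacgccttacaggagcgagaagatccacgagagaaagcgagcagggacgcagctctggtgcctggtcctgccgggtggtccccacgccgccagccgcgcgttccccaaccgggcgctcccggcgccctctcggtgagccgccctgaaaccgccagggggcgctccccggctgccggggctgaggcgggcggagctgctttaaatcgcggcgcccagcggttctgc
CLDN7, chr17:7262479-7262728, minus strand: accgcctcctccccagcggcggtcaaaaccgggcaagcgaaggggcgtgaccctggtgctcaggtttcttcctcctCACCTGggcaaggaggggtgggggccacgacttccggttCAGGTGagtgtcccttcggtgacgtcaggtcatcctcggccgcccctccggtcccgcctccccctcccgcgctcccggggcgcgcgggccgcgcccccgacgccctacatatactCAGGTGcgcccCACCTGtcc

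The TMEM47 and CLDN1 windows held 0 matches, and this CLDN7 window held 4. The window of the other CLDN7 start site held 0. Of all 35116 windows in the table, 17.5% held at least 1 match and 0.122% at least 4. The CLDN7 window was picked for its count, so setting it beside that share is a description only. Over the 15 start sites of the 8 measured members, 5 windows held a match, in CLDN7, TJP1, TJP3 and OCLN. The TMEM47 window was 79.6% G and C, and the CLDN1 window 68.8%. A match is a run of letters and was not tested for binding.

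The remaining claudins differed little. CLDN12, a claudin without the PDZ-binding end of most of the family, was the only one of them well above the array medians. Its probe set 11720206_s_at measured 69.5, 65.7 and 73.8 in control cells and 63.5, 60.4 and 62.3 in knockdown cells. The groups did not overlap, but the gap between control replicate 2 and the highest knockdown array was small, and the log2 difference was -0.17 ± 0.09 (SE). Its dim probe set 11720205_a_at overlapped between the groups (-0.05 ± 0.12). CLDN7, an epithelial claudin, had a control mean of 3.11 ± 0.11 and a knockdown mean of 3.24 ± 0.16 (SD, n = 3 each), below the median probe set on every array. CLDN11, the claudin of myelin and Sertoli cells, was as dim at its 3 probe sets, with log2 differences of -0.14, 0.02 and 0.15 and SEs of 0.10 to 0.12. At such levels the arrays show no more than dim signal, and no detection calls were available to tell it from background.

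OCLN, the MARVEL-domain strand protein, was dim at both probe sets. Probe set 11728484_s_at measured 2.17 to 2.49 in control and 2.23 to 2.33 in knockdown cells, and 11747435_s_at 2.0 to 2.08 and 2.03 to 2.29. Their log2 differences were -0.04 ± 0.09 and 0.09 ± 0.09 (SE), and both overlapped between the groups. The scaffold gene TJP1, which also serves adherens junctions in non-epithelial cells, was the brightest member. It measured 256.4, 225.1 and 263.4 in control cells and 238.6, 230.4 and 244.6 in knockdown cells at probe set 11725503_s_at. The knockdown values all fell within the control range, with a log2 difference of -0.06 ± 0.09 (SE). The second TJP1 probe set gave -0.15 ± 0.10, with overlap. TJP3, a scaffold largely of epithelia, was dim at 2.65 ± 0.06 and 2.83 ± 0.14 (SD, n = 3 each), a log2 difference of 0.10 ± 0.08.

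Over the 17 probe sets, all knockdown arrays lay below all controls in 5, belonging to CLDN1, CLDN12 and TMEM47, and above them in 0. Over all 49293 probe sets these shares were 11.7% and 12.1%. Because the members were chosen on this contrast, their count is a description only. At the brightest probe set of each gene, 5 members were lower and 3 higher, with a median log2 difference of -0.05, against 0.01 over all genes. The median absolute difference was 0.12 for the members and 0.12 for all genes. The members thus split into TMEM47 and CLDN1, with large differences, and 6 genes within 0.2 of 0 on the log2 scale.

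**Figure D2:**
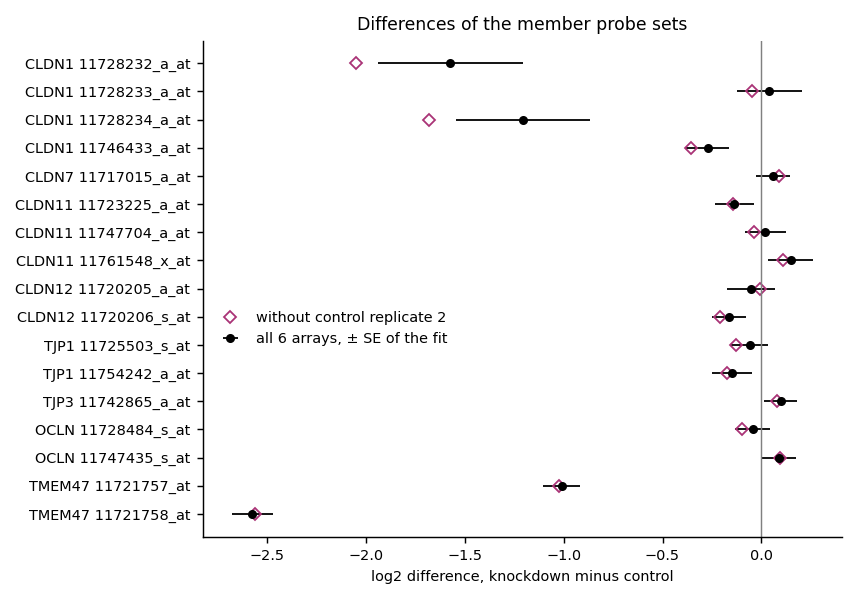
Log2 difference, knockdown minus control, of each member probe set with the SE of the limma fit over 6 arrays (black), and the same difference without control replicate 2 (open diamonds). Both TMEM47 probe sets keep their place (-2.57 and -2.56 at the brighter), whereas the brightest CLDN1 probe set moves from -1.57 to -2.05.

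TMEM47 and CLDN1 thus had unlike profiles over the 6 arrays, and the genes nearest to each were taken from all 18132 by a fixed rule. Likeness was the root mean square difference between gene-centred log2 values over the 6 arrays, and it describes these arrays alone. Nearest to TMEM47 were TFAP2B, a neural crest transcription factor (0.13), MGP, an inhibitor of calcification (0.18), the cadherin CDH19 (0.25), MAP4K5 itself (0.31) and NFATC2, a calcium-regulated transcription factor (0.38). Their log2 differences ran from -3.03 to -1.98. CDH19 measured 96.0, 66.8 and 106.6 in control and 16.3, 17.5 and 16.9 in knockdown cells, so control replicate 2 stayed with the controls. Nearest to CLDN1 were SERPINF1, which encodes the secreted factor PEDF (0.14), the homeobox gene HOXB9 (0.16), FKBP9, a prolyl isomerase of the endoplasmic reticulum (0.18), the collagen receptor kinase DDR2 (0.18) and TMTC2 (0.19). DDR2 measured 543.4 and 526.4 on control arrays 1 and 3, 195.8 on control array 2, and 132.0 to 150.1 in knockdown cells. All 5 had a control replicate 2 nearer to the knockdown arrays than to the other controls. The rule picked genes by their values on these same arrays. A control replicate 2 placed as in TMEM47 or CLDN1 was thus part of the choice and is no separate result.

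**Figure D3:**
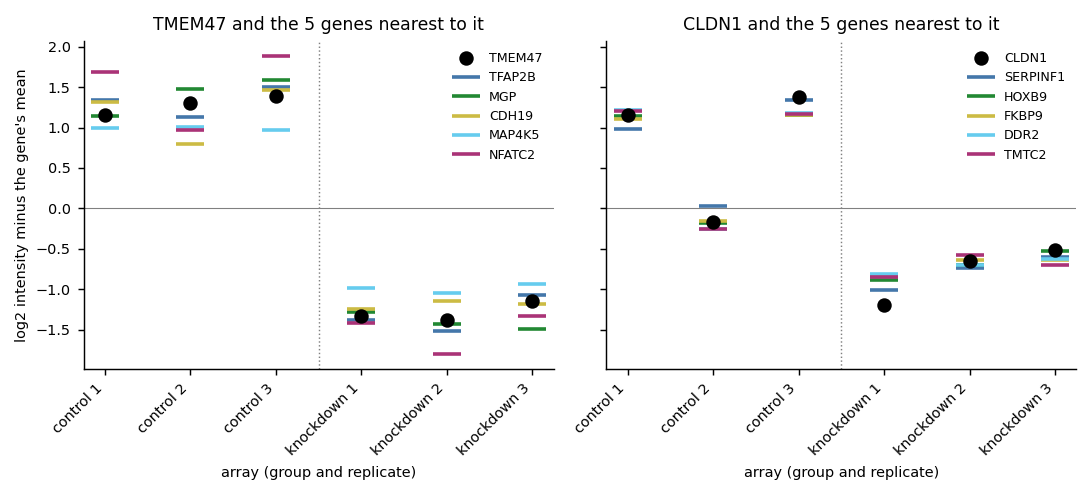
Log2 intensity minus the gene's own mean on the 6 arrays for TMEM47 (left, black points) and CLDN1 (right, black points) with the 5 genes nearest to each (coloured bars). Around TMEM47 all 3 controls lie above 0, whereas around CLDN1 control replicate 2 lies near 0, between controls 1 and 3 and the knockdown arrays. The likeness within each panel follows from the rule that picked the genes.

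The other genes of the pathway were taken from a list of 54 tight junction genes without the members, of which 48 were measured. A gene is called when its limma p, adjusted by the Benjamini-Hochberg method over all 18132 genes, is under 0.05. Of the 48, 2 were called higher and 0 lower, against 3.7% and 4.13% of all genes, and the list's median log2 difference was 0.05. At an unadjusted limma p under 0.05 the counts were 3 higher and 2 lower. The share of all genes under that unadjusted limit was not counted, so such counts, here and below, are a description only. Both genes called higher belong to the cytoplasmic side of the junction. PARD6A, a subunit of the apical polarity complex, rose from 7.49, 7.09 and 7.80 to 11.4, 10.95 and 11.9 (log2 0.61 ± 0.08 SE, limma adjusted p = 0.00511). It was called in all 6 fits without 1 array. With 16 added before log2 PARD6A stayed called, but at a difference of 0.22. ARHGEF18, an exchange factor for RhoA at junctions, rose from 37.6, 38.5 and 43.2 to 51.4, 56.8 and 52.7 (0.43 ± 0.09, adjusted p = 0.0273). Its call was lost without control replicate 1 or any 1 knockdown array, with differences of 0.39 to 0.46 in those fits. In both genes the groups were apart and control replicate 2 lay with the controls.

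At their brightest probe sets, none of the 18 other measured claudins was called by limma, and 0 had an unadjusted p under 0.05. Their log2 differences there were -0.09 to 0.14. Dimmer probe sets reached -0.34 (CLDN15) and 0.33 (CLDN18), both with overlap between the groups. Of the 18 claudins, 13 were below the median probe set on every array. The brightest was CLDN15, with a control mean of 18.2 ± 1.64 and a knockdown mean of 17.4 ± 0.71 (SD, n = 3 each). Of the 10 other MARVEL, JAM and tricellular genes, 0 were called and 0 had an unadjusted limma p under 0.05. JAM3, an adhesion molecule related to F11R, stood at 62.8 ± 5.27 and 62.7 ± 1.88. CXADR, named after its values were seen, was read unevenly. Its brightest probe set gave 0.00 ± 0.14, and the dimmer 11720637_x_at rose from 4.58 to 5.05 in control to 8.16 to 10.1 in knockdown cells without overlap (0.93 ± 0.10). IDs ending in _x_at can bind several transcripts.

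Of the 20 other plaque and polarity genes, 18 were not called. MPDZ, a scaffold with many PDZ domains, was also named after its values were seen. At its brightest probe set it measured 35.1, 48.7 and 41.7 in control and 30.2, 29.6 and 31.3 in knockdown cells, a difference of -0.45 ± 0.12 (SE) with a limma adjusted p of 0.0588. All 4 of its probe sets were lower, by -0.75 to -0.41, and it was called without control replicate 1 (-0.57), without control replicate 2 (-0.33) and with the mean of its probe sets (-0.57). PARD6B, a paralogue of PARD6A, stood at 0.39 ± 0.10 with an adjusted p of 0.0547. Without control replicate 2, PARD6A, ARHGEF18 and PARD6G were called higher and MPDZ and YBX3 lower. That fit called 3732 of all 18132 genes, higher and lower together, and the share in each direction was not counted.

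The list of PMP22, EMP and claudin-like genes, kin of TMEM47, also held the MARVEL-domain MAL genes. Of its 14 measured members, 3 rose, 0 fell and 11 were not called by limma, against 3.7% higher and 4.13% lower of all genes. The median was 0.04, against 0.01 over all genes, with an unadjusted limma p under 0.05 for 3 higher and 2 lower. MAL2, a membrane protein of apical transport, rose from 13.6, 12.9 and 19.6 to 69.1, 74.0 and 69.7 (2.23 ± 0.15 SE, limma adjusted p = 0.000312). Its second probe set gave 2.25, and with 16 added before log2 the difference was 1.48. EMP3, a PMP22-family protein, rose from 42.5, 57.2 and 59.2 to 92.0, 96.8 and 82.6 (0.78 ± 0.14, adjusted p = 0.0144). PERP, a PMP22-family protein of desmosomes and a p53 target, rose from 62.1, 60.6 and 56.0 to 107.8, 104.6 and 86.0 (0.73 ± 0.11, adjusted p = 0.00719). In all 3 the groups did not overlap, and the 3 PERP probe sets were all higher. MAL2 and PERP were called in all 6 fits without 1 array, and EMP3 was lost without knockdown replicate 1 or 2.

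Adherens junction genes gave 2 called higher and 0 lower among 11 measured, against 3.7% and 4.13% of all genes. Their median was -0.02, against 0.01 over all genes, with 3 higher and 3 lower at an unadjusted limma p under 0.05. JUP (plakoglobin), shared with desmosomes, rose by 0.44 ± 0.09 (SE) to 12.4 ± 1.25 (SD, n = 3; limma adjusted p = 0.0297). The nectin NECTIN1 rose by 0.42 ± 0.11 (adjusted p = 0.0496). Of its 3 other probe sets, 1 was higher without overlap (0.31 ± 0.09) and 2 dim ones overlapped between the groups (-0.12 and 0.17). Both calls were lost in all fits without 1 array except the fit without control replicate 2, and NECTIN1 also with the replicate number as a block (adjusted p = 0.0855), with 16 added before log2 (0.0683), with the mean of probe sets (0.158) and without _x_at and _s_at probe sets (0.0553). Without control replicate 2, the list had 4 called higher, NECTIN4 and VCL being added, and 2 lower, CTNNA1 and NECTIN3. That fit called 3732 of all 18132 genes, higher and lower together, and the share in each direction was not counted. CDH1, the E-cadherin of epithelia, was dim at 2.73 ± 0.22 and 2.69 ± 0.14, whereas CDH2, N-cadherin, was bright at 268.1 ± 34.2 and 219.6 ± 3.21 (SD, n = 3 each; -0.28 ± 0.10 SE, limma adjusted p = 0.148).

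**Figure D4:**
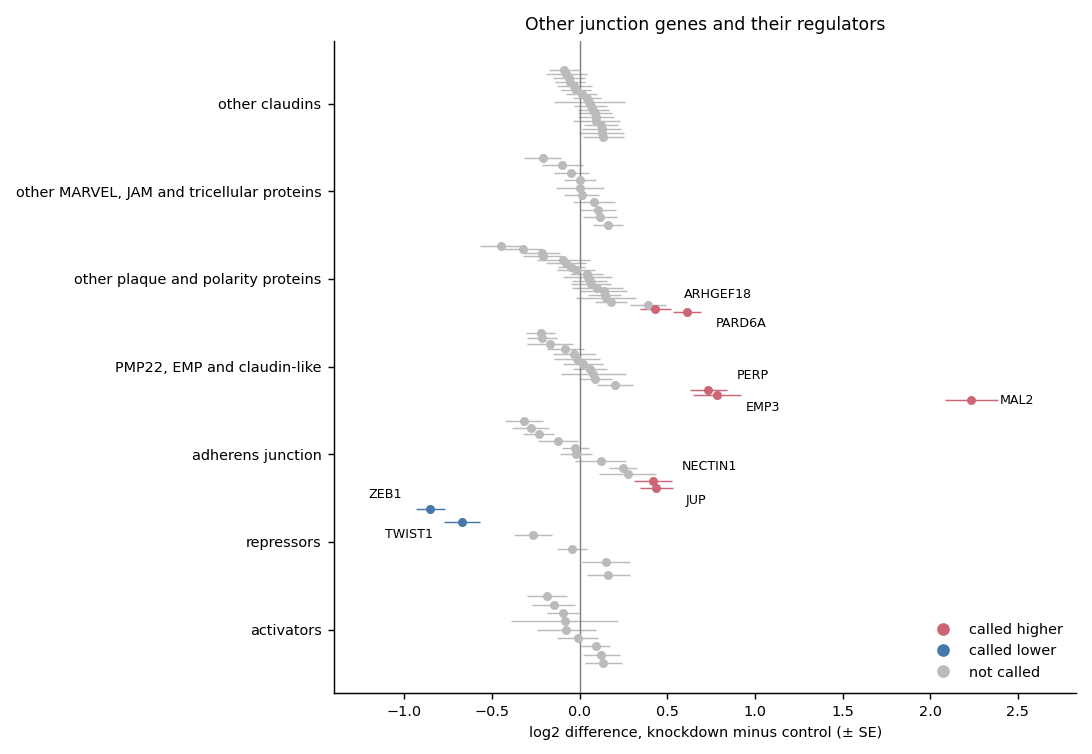
Log2 difference, knockdown minus control, with the SE of the limma fit, for each measured gene of the other junction lists and of the transcription factor list, split into repressors and activators of epithelial junction genes. Called genes are coloured and named: MAL2 lies furthest right at 2.23, and ZEB1 (-0.85) and TWIST1 (-0.67) are the only genes called lower.

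Transcription factors known to repress or activate epithelial junction genes gave 0 called higher and 2 lower among 15 measured by limma. The shares of all genes were 3.7% and 4.13%. At an unadjusted limma p under 0.05, 0 were higher and 3 lower. The share of all genes under that limit was not counted, so this is a description only. Both genes called lower are repressors. ZEB1 fell from 140.0, 126.9 and 137.1 to 72.5, 75.6 and 75.7 (-0.85 ± 0.08 SE, limma adjusted p = 0.00112), and all 7 of its probe sets were lower, by -0.87 to -0.33. TWIST1 fell from 67.8, 56.2 and 62.2 to 36.3, 37.7 and 42.9 (-0.67 ± 0.10, adjusted p = 0.00928), a call lost without knockdown replicate 1 or 2. In both genes control replicate 2 was the lowest control yet above all knockdown arrays. The highest knockdown array was 75.7 for ZEB1, against 126.9, and 42.9 for TWIST1, against 56.2. The other repressors, SNAI1, SNAI2, ZEB2 and TWIST2, were not called, and neither were the 9 activators, of which 6 were below the median probe set on all arrays. All ZEB1 probe sets are of the _x_at or _s_at type. Without control replicate 2 the list had 4 called lower, the activators KLF4 and KLF5 being added. That fit called 3732 of all 18132 genes, higher and lower together, and the share in each direction was not counted. Control replicate 2 was below the knockdown arrays in both, at 37.3 against 62.5 to 63.9 (KLF4) and 77.7 against 92.5 to 102.6 (KLF5). With all arrays their log2 differences were -0.08 ± 0.31 and -0.07 ± 0.17 (SE).

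Marker lists of 3 cell types were read in the same way. Over all genes limma called 3.7% higher and 4.13% lower. Of 10 epithelial markers, 6 were below the median probe set on every array, CDH1 and EPCAM among them. KRT18 (0.69 ± 0.09 SE, limma adjusted p = 0.00493) and KRT14 (1.09 ± 0.16, adjusted p = 0.00687, or 0.38 with 16 added before log2) rose, 0 fell and 8 were not called. The summed epithelial level, most of it KRT18, was 1205 to 1356 on control arrays and 1913 to 2217 on knockdown arrays. All probe sets of both keratins are of the _x_at type. Without control replicate 2, KRT8 was called higher as well, 3 in all. That fit called 3732 of all 18132 genes, higher and lower together. KRT8 in control replicate 2 was 26.2, against 13.9 and 15.4 in the other controls and 23.5 to 29.2 in knockdown cells. Of 8 measured melanocytic markers, MITF, the melanocyte master regulator, rose (0.99 ± 0.16, adjusted p = 0.0114), and SOX10 (-0.54 ± 0.11, adjusted p = 0.0286) and the calcium-binding protein gene S100B (-1.31 ± 0.15, adjusted p = 0.00256) fell, with summed levels of 169.3 to 188.4 and 178.8 to 189.0. MITF lost its call without any 1 knockdown array, and SOX10 in all fits without 1 array except that without control replicate 2, and with 16 added before log2. A second, dimmer SOX10 probe set overlapped between the groups (-0.05 ± 0.11 SE), whereas the second MITF probe set (0.75) and both other S100B probe sets (-0.86 and -1.10) had the sign of the brightest without overlap. MITF in control replicate 2 was 79.4, against 50.6 and 52.8 in the other controls and 115.7 to 121.7 in knockdown cells. Another 4 melanocytic markers, PMEL, MLANA, TYR and TYRP1, were below the median probe set on every array. Of 7 endothelial markers, 0 were called by limma, 0 had an unadjusted p under 0.05 and 5 were below the median on every array, and VWF had the smallest p (0.22 ± 0.12, adjusted p = 0.335). The part of these marker differences in the member values was not tested.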

How the data were processed

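Total RNA of 3 control and 3 knockdown A375 samples was hybridised to Affymetrix arrays as biotin-labelled cRNA, per the labels' protocols. The authors deposited 1 intensity per probe set and array, not logged. RMA is the tool named per the submitters' processing notes, its version and annotation build unstated. Log2 was taken here without a pseudocount. Of 49293 probe sets, 44988 had 1 symbol in the platform annotation, 1832 several and 2473 none. Entrez identifiers set against the RefSeq table of GRCh38.p14 changed 0 symbols. Genes other than members were read by the probe set with the highest mean, which gave 18132 genes.

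Groups were compared with limma 3.58.1 (under R 4.3.3, eBayes with no intensity trend, Benjamini-Hochberg over all genes, threshold 0.05), tested on simulated data. Differences of member probe sets come from the same fit over all probe sets. Up to 3 called genes in each direction were named per list, or the smallest p. Members and lists were chosen with earlier results of these data known. Promoters and motif counts used Python 3.11.15 and pandas 2.3.3. The number of arrays limits the precision. Same-numbered arrays were not paired: their deviations from the group means correlated at -0.10, 0.03 and 0.10. Alternatives were the replicate block, each array left out, repeated quantile normalization, a common median, 16 added before log2, the lowest 25% left out, an intensity trend, the mean of probe sets, and no _x_at or _s_at probe sets.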

Additional observations from a re-analysis of the deposited data

How the results depend on the processing

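With each array left out in turn, all genes called numbered 324 to 3732, against 1420 with all 6 arrays, and the highest count came without control replicate 2. Other tight junction genes called higher numbered 1 to 3 over the same fits, against 2, and those called lower 0 to 2, against 0. Without _x_at and _s_at probe sets 1 was called higher, and with the mean of probe sets 1 was called lower, which was MPDZ. With the replicate number as a block 1188 genes were called, and 2 and 0 of the other tight junction genes. Apart from NECTIN1, the block changed no call of a named gene. Over 306 values of members under the alternatives, 14 moved by at least 1 SD. Both TMEM47 probe sets and the CLDN1 probe sets 11728232_a_at and 11728234_a_at stayed lower under each alternative, whereas dim probe sets near 0 could take either sign. The 14 came from adding 16 before log2 (TMEM47 -1.26, CLDN1 -0.88, and dim probe sets of CLDN1, CLDN11, TJP3, OCLN and TMEM47), from the mean of probe sets (TMEM47 -1.79, CLDN1 -0.75) and, for CLDN12, from leaving out its _s_at probe set (-0.05). Of 220 values of the 16 other named genes, 31 lost their call and 0 changed sign. ZEB1, KRT18, KRT14 and PARD6A had no value without _x_at and _s_at probe sets. Background correction could not be repeated from the summarised values, and dim probe sets limit what can be said of CLDN7, CLDN11, OCLN and TJP3.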
